A study of Homo sapiens with 10 samples.

Results

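Interferon-stimulated genes were followed in bulk RNA sequencing of 4 blood cancer cell lines and of their pools, 10 libraries in all. The group was a list of 45 gene symbols, and 44 of them had a row in the deposited table of 20591 genes. Levels of IRF9, the DNA-binding partner of STAT2, were not analysed here. The libraries comprised 6 in vitro mixtures of HL60, K562, SUDHL4 and THP1 cells (mixtures 1 to 6) and 1 pure population of each line. All were labelled wild type, with no treatment and a time of day 0, and all cells grew in RPMI with 10% fetal bovine serum. HL60 and THP1 derive from acute myeloid leukaemias, of promyelocytic and monocytic character. K562 derives from a chronic myeloid leukaemia and carries erythroid traits, and SUDHL4 derives from a B cell lymphoma of germinal-centre type. The mixed ratios are not given in the sources used here, nor is whether, or for how long, the lines shared a vessel before harvest. Each group held 1 library, so no difference has a replicate check, no p-value is given, and intervals below cover counting error only.

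Type I interferons bind the receptor of IFNAR1 and IFNAR2 and signal through the kinases JAK1 and TYK2. A complex that holds STAT2 and IRF9 then binds the interferon-stimulated response element in promoters, and the induced proteins block viral entry, translation and replication. Some of the same genes also have a basal level that differs between blood lineages. Cells that sense a neighbour's interferon raise many of these genes together, so the question was whether any of them stood above the level that the pure lines give.

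The response element has a core of paired GAAA boxes, searched here as GAAA, any 2 bases and GAAA, on both strands. RefSeq promoter windows (GRCh38.p14, 250 bases before to 50 after a start site) were at hand for 34 of the 45 symbols, in 46 windows. The core occurred in 27 of those 46 windows (58.7%), against 3.57% of all 35116 windows, with overlapping matches counted. Some windows of 1 gene overlap and share matches, as for IFI27 and IFI44. Counted by symbol, 23 of the 34 had a match. The palindromic STAT core, TTC, any 3 bases and GAA, occurred in 10 of the 46 windows (21.7%), against 7.66% of all windows, and in 9 of the 34 symbols. A match is a description of letters and not a measured binding site. The windows below are examples that all hold a match, and not every enriched member had one. The windows of XAF1, enriched in THP1, and of IFI16, enriched in SUDHL4, held 0 matches. Shown are ISG15 and ISG20, the members furthest above their predicted level in mixtures, IFI6 and OAS3, enriched in THP1, and IFITM1, enriched in K562. Each runs from 5′ to 3′ on the gene's strand with core matches in capitals.
ISG15: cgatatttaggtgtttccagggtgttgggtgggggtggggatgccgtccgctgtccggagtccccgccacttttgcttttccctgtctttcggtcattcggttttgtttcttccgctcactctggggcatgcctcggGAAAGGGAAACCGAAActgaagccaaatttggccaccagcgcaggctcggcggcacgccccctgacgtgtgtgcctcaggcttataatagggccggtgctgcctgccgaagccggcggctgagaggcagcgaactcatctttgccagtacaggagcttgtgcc
ISG20: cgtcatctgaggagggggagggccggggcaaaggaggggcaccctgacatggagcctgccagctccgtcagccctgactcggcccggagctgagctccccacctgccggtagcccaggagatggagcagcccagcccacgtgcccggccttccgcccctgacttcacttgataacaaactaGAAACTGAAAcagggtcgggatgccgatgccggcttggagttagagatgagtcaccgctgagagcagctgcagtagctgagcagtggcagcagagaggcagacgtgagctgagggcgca
IFI6: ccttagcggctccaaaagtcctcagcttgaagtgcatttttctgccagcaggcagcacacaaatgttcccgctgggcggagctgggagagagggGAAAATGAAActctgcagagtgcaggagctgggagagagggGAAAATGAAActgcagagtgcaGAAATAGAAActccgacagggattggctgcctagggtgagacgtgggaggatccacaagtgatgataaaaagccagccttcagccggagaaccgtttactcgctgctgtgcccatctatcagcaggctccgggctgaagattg
OAS3: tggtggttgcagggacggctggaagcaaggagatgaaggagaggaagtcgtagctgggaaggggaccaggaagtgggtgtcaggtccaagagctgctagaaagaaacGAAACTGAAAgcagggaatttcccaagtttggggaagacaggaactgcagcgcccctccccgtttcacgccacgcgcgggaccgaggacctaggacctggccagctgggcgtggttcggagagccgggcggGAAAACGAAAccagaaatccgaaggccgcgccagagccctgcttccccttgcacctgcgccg
IFITM1: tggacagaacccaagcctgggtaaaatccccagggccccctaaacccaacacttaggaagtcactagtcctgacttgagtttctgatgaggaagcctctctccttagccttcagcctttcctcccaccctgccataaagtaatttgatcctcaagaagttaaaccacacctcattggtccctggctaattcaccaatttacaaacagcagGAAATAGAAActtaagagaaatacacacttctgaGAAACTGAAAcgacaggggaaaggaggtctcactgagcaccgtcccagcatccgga
In ISG15 (chr1:1013247-1013546, plus strand) the 2 matches overlapped and began 113 and 107 bases before the start site. IFI6 (chr1:27672143-27672442, minus strand) held 3, OAS3 (chr12:112938224-112938523, plus strand) and IFITM1 (chr11:313790-314089, plus strand) 2 each, and ISG20 (chr15:88638766-88639065, plus strand) 1.

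Levels are normalised CPM as deposited, that is reads per 1000000 with a further scaling factor for each library. The libraries held between 24985570 and 36607612 reads, and 1 read stood at 0.0409 to 0.0594 normalised CPM. All 16 markers of the 4 lines were highest in the pure library of their own line, such as MPO at 15646 in HL60, HBE1 at 2755 in K562, MS4A1 at 2669 in SUDHL4 and LYZ at 1078 in THP1. In bulk RNA, fewer cells of a line and less RNA per cell cannot be told apart, so a share of a mixture is a share of RNA.

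Basal levels differed widely between members. Of the 44, 31 reached 5 normalised CPM in a pure line, 13 stayed under 5 in every library and 5 under 1 (IFI44, IFI44L, IFI27, GBP1 and IFIT5). THP1 had the broadest basal set, with 26 members at 5 or more, against 18 in HL60, 13 in SUDHL4 and 13 in K562. Over all 20591 genes 47.8%, 43.8%, 43.4% and 45.5% reached 5 in these lines, so the 18 of 44 in HL60 were near the share of all genes. Of the 31 members at 5 or more in a pure line, THP1 was the highest line for 14, SUDHL4 for 11, HL60 for 5 and K562 for 1, where 20.7%, 24.3%, 24.8% and 30.2% of all such genes were highest in these lines. All 44 had reads in THP1, while 8 had none in K562, 6 none in SUDHL4 and 5 none in HL60. The shares of all genes without reads were not computed, so these counts are not read as particular to the members. The median log2 difference of all 44 members from the mean of the other lines, on log2(value + 1), was 1.10 in THP1, −0.06 in HL60, −0.63 in SUDHL4 and −0.72 in K562. Over only the 31 members at 5 or more in a pure line these medians were 1.31, −0.03, −1.17 and −1.12. Over the 11717 genes at 5 or more in a pure line they were −0.16, 0.08, −0.10 and 0.07.

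**Figure D1:**
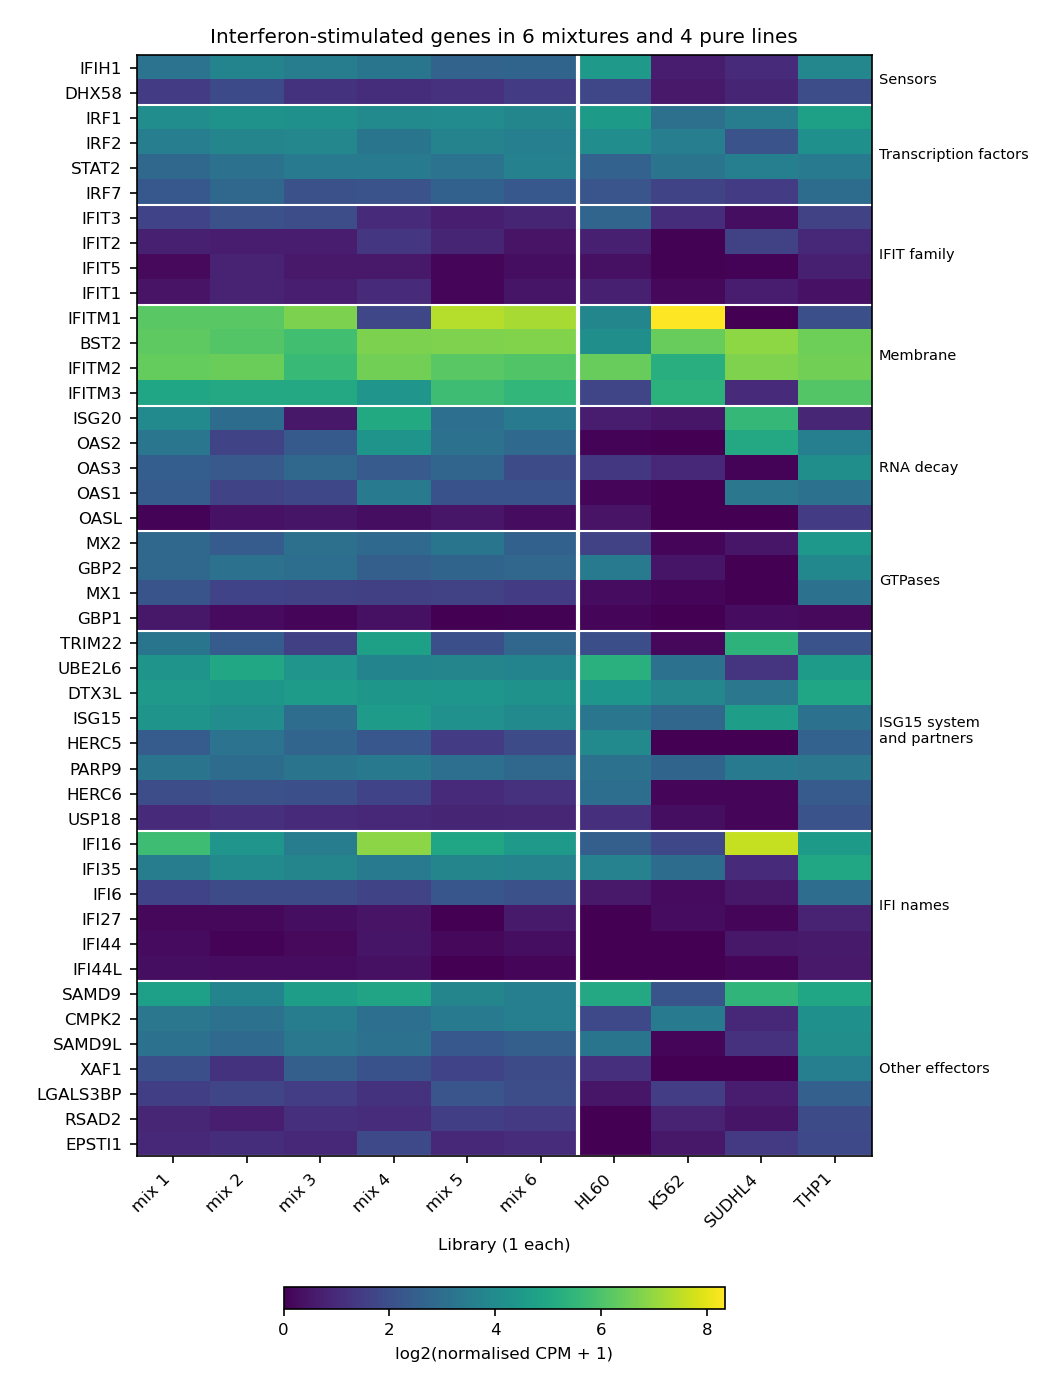
Levels of the 44 members in each library, as log2(normalised CPM + 1), with mixtures 1 to 6 to the left of the white line and the 4 pure lines to the right. Rows are grouped by role; the K562 level of IFITM1 (322 normalised CPM) and the SUDHL4 level of IFI16 (194) are the brightest cells.

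Enrichment in a line required 5 or more normalised CPM and a margin of 2 log2 units or more over every other line. By this rule 5 members were enriched in THP1 (5.03% of the 11717 genes were), 3 in SUDHL4 (3.56%), 1 in K562 (4.6%) and 0 in HL60 (0.973%). The remaining 22 of the 31 members at 5 or more were not enriched in any line.

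The THP1 members were MX1, MX2, OAS3, XAF1 and IFI6. MX1, a dynamin-like GTPase that traps viral nucleoproteins, was at 3.48, 2.20, 2.11, 2.00, 2.05 and 1.79 normalised CPM in mixtures 1 to 6, against 7.65 in THP1, 0.218 in HL60, 0.0706 in K562 and 0 reads in SUDHL4. MX2, its relative that restricts HIV near the nuclear pore, was at 6.01, 4.42, 7.46, 6.14, 8.47 and 5.05 in mixtures 1 to 6, against 20.5 in THP1, 2.03 in HL60, 0.422 in SUDHL4 and 0.0706 in K562. Both genes were highest in THP1 and lower than that in every mixture.

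OAS3, an enzyme that makes 2′-5′ oligoadenylate on double-stranded RNA, was at 4.65, 4.02, 6.07, 4.20, 5.66 and 2.81 in mixtures 1 to 6, against 16.9 in THP1, 1.53 in HL60, 0.918 in K562 and 0.0551 in SUDHL4. XAF1, a pro-apoptotic antagonist of XIAP, was at 3.12, 1.33, 4.70, 3.33, 2.21 and 2.78 in mixtures 1 to 6, against 10.98 in THP1, 1.19 in HL60 and 0 reads in K562 and SUDHL4. Mixture 3 was the highest mixture for XAF1 and mixture 2 the lowest. IFI6, an endoplasmic reticulum protein that restricts flavivirus replication, was at 2.17, 2.83, 2.81, 2.26, 3.70 and 3.24 in mixtures 1 to 6, against 6.83 in THP1, 0.486 in HL60, 0.459 in SUDHL4 and 0.184 in K562.

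The SUDHL4 members were IFI16, ISG20 and TRIM22. IFI16, a nuclear DNA sensor (GRCh38 chromosome 1, 158999968 to 159055155), was at 53.2, 19.5, 10.6, 118, 28.9 and 21.8 in mixtures 1 to 6, against 194 in SUDHL4, 22.5 in THP1, 4.78 in HL60 and 2.47 in K562. TRIM22, a ubiquitin ligase of the tripartite motif family, was at 8.50, 4.34, 2.01, 25.8, 3.11 and 5.78 in mixtures 1 to 6, against 40.7 in SUDHL4, 3.41 in THP1, 3.03 in HL60 and 0.127 in K562. Both were highest in mixture 4 and lowest in mixture 3 among the mixtures. The annotated span of TRIM22 overlaps that of TRIM5 on the opposite strand. ISG20, an exonuclease that degrades RNA, was at 14.4, 6.75, 0.449, 32.7, 7.34 and 9.80 in mixtures 1 to 6, against 45.6 in SUDHL4, 0.871 in THP1, 0.587 in HL60 and 0.409 in K562.

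The K562 member was IFITM1, a membrane protein that hinders fusion of enveloped viruses. It was at 72.0, 73.0, 103, 2.41, 168 and 149 in mixtures 1 to 6, against 322 in K562, 13.3 in HL60, 3.10 in THP1 and 0 reads in SUDHL4. Its exons overlap those of IFITM2 on the same strand and the family is closely related, so the split of reads between IFITM genes is uncertain. IFITM3 was highest in THP1 (67.9), next in K562 (39.5), and low in HL60 (2.36) and SUDHL4 (0.973). IFITM2 spanned only 37.1 in K562 to 105 in SUDHL4. BST2, or tetherin, which holds budding virions at the cell surface, stood at 120 in SUDHL4, 88.5 in THP1, 82.5 in K562 and 16.6 in HL60. Per kilobase of annotated exon, the member with the highest level was IFITM1 in K562 (298 normalised CPM per kb), BST2 in SUDHL4 (107) and THP1 (79.1), and IFITM2 in HL60 (54.6).

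HL60 led for 6 members without an enriched call. IFIH1, the RNA sensor MDA5, was at 8.06, 12.5, 10.3, 8.34, 5.30 and 5.44 in mixtures 1 to 6, against 21.7 in HL60, 13.4 in THP1, 1.01 in SUDHL4 and 0.551 in K562. UBE2L6, the conjugating enzyme of ISG15, stood at 38.2 in HL60, 22.8 in THP1, 7.72 in K562 and 1.41 in SUDHL4. HERC5, its ligase, stood at 14.5 in HL60 and 5.18 in THP1, with 0 reads in K562 and SUDHL4. ISG15 itself was highest in SUDHL4, at 23.7. The IFIT family, whose proteins bind foreign RNA and hinder translation, was low in these libraries. IFIT3 was at 2.17, 3.15, 2.88, 1.01, 0.607 and 0.813 in mixtures 1 to 6, against 5.58 in HL60, 2.03 in THP1, 1.12 in K562 and 0.239 in SUDHL4. IFIT1, IFIT2 and IFIT5 were at 2.07 or less in all 10 libraries. IRF1, a transcription factor of the interferon response, was at 16.1, 18.2, 17.0, 14.8, 15.3 and 13.1 in mixtures 1 to 6, against 25.6 in THP1, 22.3 in HL60, 10.3 in SUDHL4 and 7.41 in K562. STAT2 ran from 11.1 in SUDHL4 to 5.15 in HL60.

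Among the other genes of the pathway, the interferon genes themselves were not analysed here. All 10 receptor and signalling genes listed reached 5 normalised CPM in a pure line. IFNLR1, the interferon lambda receptor chain, was enriched in SUDHL4, at 40.9 with 0 reads in the other lines. Of 11 measured sensing genes 1 was enriched, IRF5 in THP1 (152, against 11.6 in SUDHL4, 2.36 in HL60 and 0 reads in K562). Of 6 feedback genes 1 was enriched, SOCS3 in K562 (31.6, against 1.88 in THP1, 0.218 in HL60 and 0 reads in SUDHL4). Of 33 further interferon-stimulated genes outside the 44, 3 were enriched, all in THP1: the guanylate-binding proteins GBP4 (5.30) and GBP5 (7.75), and RTP4 (5.33). GBP4 and RTP4 lay just over the minimum level of 5. At 5 or more in a pure line were 31 of these further genes, 8 of the sensing and 5 of the feedback genes. Over the 11717 genes at that level, 5.03% were enriched in THP1, 4.6% in K562 and 3.56% in SUDHL4. Counts this small are no result particular to the pathway.

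The main question was whether pooling raised these genes. The labels do not say whether the lines were cultured together. If they were mixed only at harvest, no line could respond to another, and a lack of change would carry no information on such a response. In a pool of cells that do not affect each other, a transcript should lie within the range of its sources at any ratio. A member counted as above that range when it had at least 1 normalised CPM in a mixture and its 95% Poisson interval lay above those of all 4 pure lines. None of the 44 did so in any mixture, in 206 member and mixture pairs that reached the level. Over all genes 1.19% of pairs did, or 0.124%, 3.15%, 0.163%, 1.27%, 1.71% and 0.746% in mixtures 1 to 6. Requiring in addition 1.5 times the highest pure level left 0.246% of all pairs and 0 of the members'. Restricting the comparison to lines with at least 1% of a mixture, a rule added after the values were seen, also gave 0, against 1.53% of all pairs. In the other direction, also added later, 0 of 78 pairs lay below every pure line, against 1.85% of all pairs. Only 6 members had any mixture level over their highest pure level, all with overlapping intervals. The 2 of them at 5 or more were STAT2, at 11.8 in mixture 6 against 11.1 in SUDHL4, and OAS1, at 9.71 in mixture 4 against 8.87 in SUDHL4.

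That test is blunt for a gene that 1 line dominates, so each mixture was also compared with a predicted level. The share of each line came from non-negative least squares on up to 100 signature genes per line, with all interferon genes left out. Estimated shares in mixture 1 were 28.9% THP1, 26.1% HL60, 22.8% K562 and 22.2% SUDHL4. Mixture 2 was mainly HL60 (48.7%), with 23.95% THP1, 20.7% K562 and 6.62% SUDHL4. Mixture 3 held 39.5% K562, 35.1% THP1, 25.4% HL60 and 0% SUDHL4, and mixture 4 held 58.2% SUDHL4, 31.3% THP1, 10.5% HL60 and 0.0211% K562. Mixtures 5 and 6 were mainly K562 (53.8% and 53.2%), with 34.3% and 27.7% THP1, 11.6% and 11.5% SUDHL4, and 0.298% and 7.63% HL60. The rule for a departure was a distance of 1 or more between observed and predicted log2(value + 1), in members where one of these levels reached 5. The 6 comparisons share the same 4 pure libraries, so a difference that recurs between mixtures is not independent support.

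No member passed this rule in either direction in any mixture. There were 137 testable pairs, from 26 members, and 0 were above, against 0.224% of all pairs, and 0 below, against 0.219%. Over all genes of each mixture, 0.0486%, 0.401%, 0.119%, 0.17%, 0.467% and 0.134% were called above in mixtures 1 to 6 and 0.0583%, 0.841%, 0.0296%, 0.05%, 0.229% and 0.106% below. A share of 0 is near these background shares and is no result particular to the members. The median difference over the members was −0.05, 0.04, 0.07, 0.03, 0.08 and −0.05 log2 units in mixtures 1 to 6. Over all testable genes it was −0.01, 0.01, 0.01, 0.05, −0.02 and −0.01. Of the 137 pairs 126 lay within 0.5 log2 units (92.0%), against 93.6% of all pairs. The members' levels summed to 555, 514, 479, 627, 631 and 586 normalised CPM in mixtures 1 to 6, where 544, 476, 496, 607, 594 and 574 were predicted. The ratio of these sums was 1.02, 1.08, 0.966, 1.03, 1.06 and 1.02 in mixtures 1 to 6. Sums over all genes gave ratios of 1.02, 1.07, 0.990, 1.06, 1.02 and 1.00. Members at high levels weigh most in such sums, such as IFITM1 with 168 in mixture 5. The 18 members not testable in any mixture were too low for this rule, which therefore says nothing about them.

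**Figure D2:**
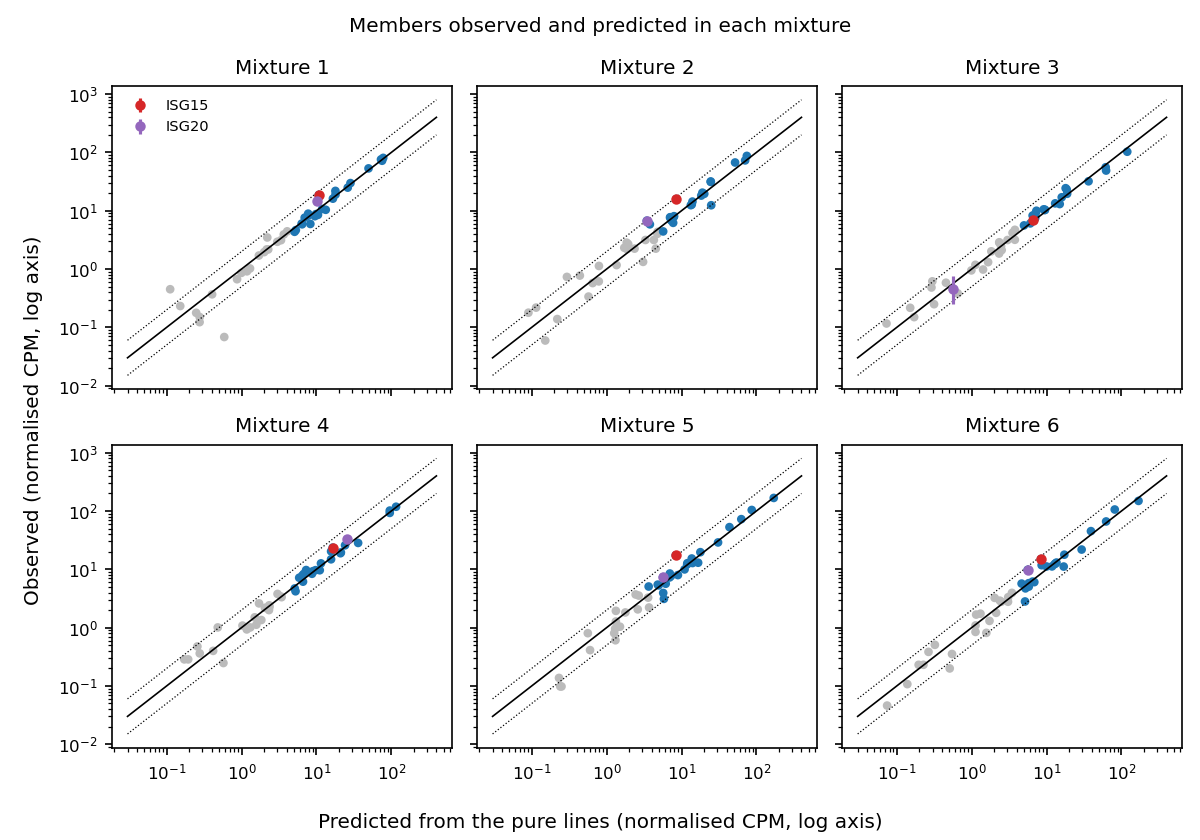
Observed against predicted normalised CPM of the members in each mixture, on log axes, with the line of equality and dotted lines at 2-fold. Blue points are testable members, grey points those under 5 in both values, and points at 0 are left out; ISG15 (red) and ISG20 (purple) carry 95% Poisson intervals, and ISG15 stands at 17.4 observed against 8.38 predicted in mixture 5.

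Among the MX and OAS genes, common readouts of an interferon response, MX1 and OASL were too low to test in any mixture. MX2 was testable in 6 mixtures, OAS3 in 5, OAS2 in 4 and OAS1 in only 1. In these pairs no difference from prediction was larger in size than the −0.69 log2 units of OAS3 in mixture 6. For MX2, 6.35, 5.69, 7.04, 6.62, 6.98 and 5.78 were predicted in mixtures 1 to 6, and its log2 differences lay between −0.31 and 0.25. For OAS3, 5.31, 4.76, 6.06, 5.26, 6.15 and 5.15 were predicted. Its difference was largest in mixture 6, at −0.69 log2 units. IFI16 was within 0.19 log2 units of its prediction in mixtures 1 to 5 and at −0.41 in mixture 6. IFITM1 lay between −0.21 and 0.04 log2 units from its prediction in the 5 mixtures where it was testable, which leaves out mixture 4. IRF1 lay between −0.07 and 0.15 and IRF2 between −0.14 and 0.04 log2 units in all 6.

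ISG15 was the member that came nearest to a call above prediction. It was singled out after its values were seen. ISG15, a ubiquitin-like protein attached to other proteins after interferon, was observed at 18.7, 15.9, 6.83, 23.6, 17.4 and 15.04 normalised CPM in mixtures 1 to 6. The predicted levels were 10.8, 8.52, 6.58, 16.5, 8.38 and 8.42, from pure levels of 23.7 in SUDHL4, 8.77 in HL60, 7.81 in THP1 and 5.80 in K562. Mixtures 1, 2, 5 and 6 were thus above the levels of the 3 lower lines and 1.74 to 2.08 times their predictions, mixture 4 was 1.43 times and mixture 3 was 1.04 times. Counting intervals of observed and predicted levels did not overlap in those mixtures except mixture 3, such as 15.9 to 19.1 observed against 7.46 to 9.38 predicted in mixture 5. The log2 differences were 0.75, 0.83, 0.05, 0.49, 0.98 and 0.77 in mixtures 1 to 6. Genes at least as far above prediction as ISG15 numbered 18, 99, 3949, 215, 54 and 50 in mixtures 1 to 6, out of 10296, 10225, 10125, 10000, 10499 and 10416 testable. With a pseudocount of 0.25 the difference in mixture 5 was 1.04 and passed the rule, and with shares from every expressed gene it was 1.02.

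**Figure D3:**
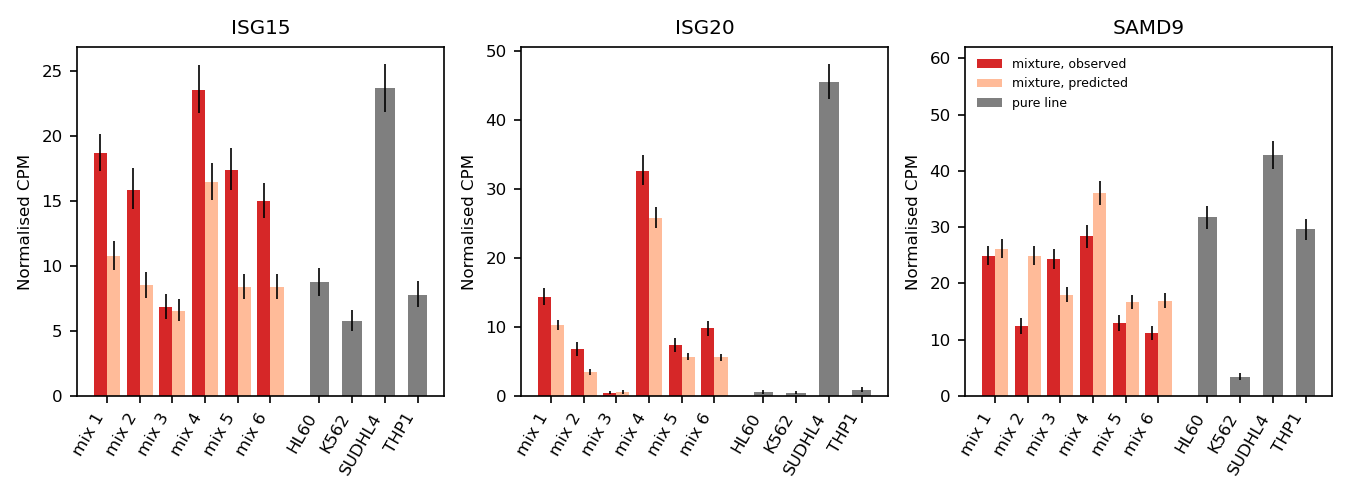
Normalised CPM of ISG15, ISG20 and SAMD9 with observed (red) beside predicted (pale) levels in mixtures 1 to 6 and the 4 pure lines (grey). Bars on observed and pure levels are 95% Poisson intervals, and those on predictions combine the pure intervals; ISG15 in mixture 5 stands at 17.4 observed beside 8.38 predicted.

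ISG20 lay next to it. Beside the levels above, 10.3, 3.44, 0.559, 25.9, 5.67 and 5.59 were predicted in mixtures 1 to 6. The excess was largest in mixture 2 (0.80 log2 units) and mixture 6 (0.71), and the value in mixture 3 was too low to test. With shares from every expressed gene ISG20 passed the rule in mixture 2. The other members that were highest in SUDHL4 gave other values: TRIM22 was at −0.73 log2 units in mixture 5 and 0.10 in mixture 4, OAS2 between −0.15 and 0.08 in the 4 mixtures where it was testable, and BST2 at 0.37, 0.26 and 0.38 in mixtures 2, 5 and 6. Over the genes enriched in SUDHL4 outside the signature, the median difference was 0.01, −0.14, 0.07, 0.00, −0.09 and −0.05 log2 units in mixtures 1 to 6. Between 82 and 270 such genes were testable. Of those, 1, 0, 44, 2, 0 and 0 in mixtures 1 to 6 were at least as far above prediction as ISG15. ISG15 was not itself enriched in SUDHL4. Among all genes highest in SUDHL4 these numbers were 4, 20, 1139, 39, 13 and 8, ISG15 included. Between 2211 and 2719 of those genes were testable. At least as far above prediction as ISG20 were 7, 1, 14, 24 and 1 of the enriched genes, ISG20 included. These numbers are for mixtures 1, 2, 4, 5 and 6.

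Annotated exon length was set beside these values. It joins the exons of all annotated transcripts of a gene, so the main transcript can be much shorter. ISG15 has 941 bases of annotated exon, and ISG20 has 7363. Genes with at most 1000 had median differences of 0.07, 0.38, −0.04, 0.21, 0.24 and 0.12 log2 units in mixtures 1 to 6, against −0.01, −0.00, 0.01, 0.05, −0.03 and −0.01 for longer genes. Among these short genes, 4 of 273, 18 of 289, 96 of 276, 33 of 274, 14 of 297 and 5 of 278 were at least as far above prediction as ISG15. The labels name 2 library kits, a total RNA and an mRNA kit, without saying which library had which. The part of length or kit in the ISG15 values was not tested.

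SAMD9, an antiviral factor that restricts poxviruses, came nearest to a call below prediction. It was observed at 24.9, 12.4, 24.4, 28.3, 12.97 and 11.1 in mixtures 1 to 6, where 26.2, 24.9, 18.0, 36.0, 16.7 and 16.9 were predicted, from pure levels of 42.8 in SUDHL4, 31.7 in HL60, 29.6 in THP1 and 3.46 in K562. The ratio in mixture 2 was 0.498, or −0.95 log2 units with the pseudocount of 1, and it was 1.36 in mixture 3. With coefficients rescaled to sum to 1, and with shares from every expressed gene, SAMD9 in mixture 2 passed the rule. Its paralogue SAMD9L was at 0.11, −0.28, 0.32, 0.24, −0.44 and −0.12 log2 units. Both were higher than predicted in mixture 3 and lower in mixtures 2, 5 and 6.

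**Figure D4:**
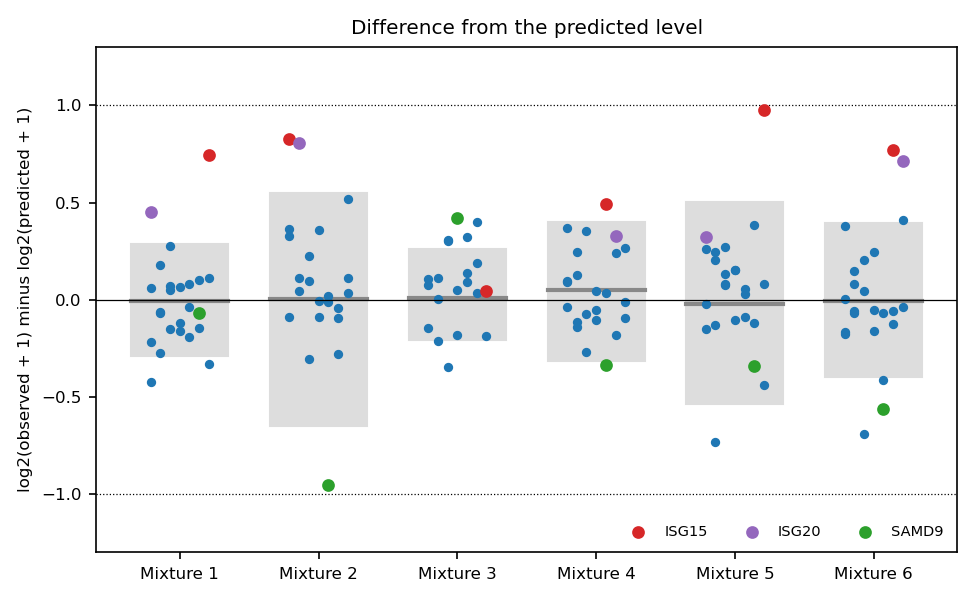
Difference between observed and predicted log2(normalised CPM + 1) for each testable member (points) in mixtures 1 to 6. Grey boxes span the 5th to 95th percentile of all testable genes with their median as a bar, and dotted lines mark the rule at 1 log2 unit up or down, which no member crosses.

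With the margin lowered to 0.5 log2 units, 7 of 137 member pairs were above, against 2.99% of all pairs, and 4 were below, against 3.4%. The 7 were ISG15 in mixtures 1, 2, 5 and 6, ISG20 in mixtures 2 and 6, and IRF7, the amplifier of type I interferon production, in mixture 2. The 4 below were TRIM22 in mixture 5, OAS3 in mixture 6, and SAMD9 in mixtures 2 and 6.

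The wider pathway was compared by the same rules. Over 148 testable pairs of other interferon-stimulated genes, 58 of receptor and signalling genes, and 29 of feedback genes, 0 were above and 0 below prediction. Of 43 pairs of sensing genes 1 was below, that of MAVS, the mitochondrial adaptor of RNA sensing, in mixture 2. Over all genes 0.224% of pairs were above and 0.219% below, and in mixture 2 0.841% were below. Counts this small are no result particular to the pathway. MAVS was observed at 29.9, 13.01, 28.3, 18.0, 12.9 and 16.7 in mixtures 1 to 6, where 31.1, 32.9, 26.3, 33.0, 24.8 and 25.98 were predicted. In mixtures 2, 4, 5 and 6 MAVS was lower than in any pure line. Its pure levels were 22.2 in K562, 26.4 in THP1, 37.0 in SUDHL4 and 43.3 in HL60. Over all genes 1.85% of pairs lay below every pure line by their counting intervals. The reference gene POLR2A was also lower than in any pure line in those mixtures, at 107, 165, 132 and 176. Its lowest pure level was 193, in THP1. How many other genes were low in the same mixtures was not counted.

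Against the range of the pure lines, 2 genes of the wider pathway stood above every pure line, in 1 mixture each. LY6E, a surface protein induced by interferon, was at 55.9, 84.7, 67.6, 21.1, 122 and 90.2 in mixtures 1 to 6, against 114 in K562, 62.7 in THP1, 46.2 in HL60 and 0 reads in SUDHL4. Its level in mixture 5 was 1.08 times that in K562, with intervals of 118 to 127 and 110.04 to 117. IRF3, a transcription factor that switches on interferon genes, was at 77.3, 107, 65.3, 61.6, 82.99 and 78.9 in mixtures 1 to 6, against 95.6 in HL60, 87.9 in THP1, 59.1 in K562 and 50.99 in SUDHL4. Its level in mixture 2 was 1.12 times that in HL60. Neither passed the rule against prediction, with log2 differences of 0.59 for LY6E in mixture 5 and 0.43 for IRF3 in mixture 2. In those mixtures 1.71% and 3.15% of all genes stood above every pure line, and among the 27 reference genes VPS29, RPLP0 and CHMP2A did so in 1 mixture each.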

How the data were processed

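Bulk RNA was sequenced from 6 mixtures and 4 pure lines, 1 library each. Build hg19, featureCounts, HISAT2 and Cell Ranger ARC 2.0.0 are listed in the submitters' processing notes, and the labels' protocols name a total RNA and an mRNA kit without assigning them to libraries. The values are the authors' deposited signal, a normalised CPM per gene, in which every nonzero value is a whole number of reads plus 0.5 times a step constant within a library (100% within 0.01 of a whole number). Whether counting used strand is not stated, so overlapping genes are uncertain. From these values read numbers, exact 95% Poisson intervals, line shares and predicted levels were computed in Python 3.11.15 with NumPy 2.4.6, SciPy 1.17.1 and pandas 2.3.3, after tests on simulated data. Shares came from up to 100 genes per line with the largest margins, each divided by its highest pure level. Predicted levels are the coefficients times the pure levels. Exon lengths, each the union of all annotated exons of a gene, and overlaps came from GENCODE (GRCh38). The members and lists were chosen with earlier results of these data known. Values in every library are given for enriched members, for those off prediction in at least 2 mixtures or above every pure line, and for the highest member of each role group; ISG15 was added after its values were seen.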

Additional observations from a re-analysis of the deposited data

How the results depend on the processing

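Of 41 values recomputed under 11 alternatives, 33 stayed within 1.5 times the reported count and 8 moved. With 0.5 times the log2 margin, enriched members numbered 2 in HL60 (IFIT3 and HERC5) and 5 in SUDHL4 (ISG15 and OAS2 added), and pairs off prediction numbered 7 above and 4 below. A pseudocount of 0.25 gave 1 pair above prediction, ISG15 in mixture 5. Shares from all genes that reached 5 in any pure line gave 2 above (ISG15 in mixture 5 and ISG20 in mixture 2) and 2 below (IFITM1 in mixture 4 and SAMD9 in mixture 2), and coefficients rescaled to sum to 1 gave 1 below (SAMD9 in mixture 2); the cause was not tested. The count above every pure line was 0 under each alternative run for it. The ISG15 ratio of observed to predicted level ranged over the settings from 1.68 to 1.75 in mixture 1, 1.78 to 1.91 in mixture 2, 0.941 to 1.04 in mixture 3, 1.37 to 1.43 in mixture 4, 2.03 to 2.16 in mixture 5 and 1.74 to 1.80 in mixture 6. Scaling to reference genes moved the median of HL60 over genes at 5 or more to −0.19, against 0.08 as deposited. That of THP1 moved to 0.07, against −0.16. The medians of all 44 members, with those under 5 included, were then −0.24 in HL60 and 1.303 in THP1. No paired analysis was possible because each group has 1 library, and for the same reason no replicate was left out. Members under 5 normalised CPM in observed and predicted level were not compared with prediction.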

Other observations

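Shares fitted on the members alone, rather than on the signature genes, gave other line proportions in several mixtures. This fit had no minimum level and divided each member by its highest pure level. Members with few reads thus weighed as much as those at high levels, such as GBP1 with 16 reads in mixture 1 and 5 in SUDHL4. The part of such low members in these proportions was not tested. In mixture 1 they were 36.4% SUDHL4, 27.98% THP1, 26.4% HL60 and 9.31% K562, against 22.2%, 28.9%, 26.1% and 22.8% from the signature genes. In mixture 3 they gave 5.96% SUDHL4, where the signature genes gave 0%, and in mixture 5 they gave 64.5% K562, where the signature genes gave 53.8%.

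Among members too low for the comparison with prediction, 4 exceeded their highest pure level in a mixture, with overlapping counting intervals. GBP1, a guanylate-binding GTPase, was at 0.450 normalised CPM in mixture 1, 2.23 times its highest pure level. IFIT1 was at 1.01 in mixture 4, 1.54 times its highest pure level, and IFIT5 at 0.733 in mixture 2, 1.12 times. EPSTI1 was at 2.60 in mixture 4, 1.01 times its highest pure level.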
